A study of Mus musculus with 2 samples.

Results

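Ring1b binding in incisor pulp cells was not spread evenly over the genome. Some of the called regions lay so close together that they formed runs several kilobases long, called chains here. A chain was built by joining merged Ring1b regions of a chromosome wherever the gap between neighbours was under 5000 bp, and it was kept when it held at least 3 regions. Chains that overlapped any of the 4 Hox clusters, taken from the first to the last Hox gene with 10 kb added on each side, were left out. This left 158 chains with 734 of the 4316 merged regions, or 17.0%. The Hox clusters accounted for a further 14 chains with 112 regions. Outside both sets there were 250 pairs of neighbouring regions, with 500 regions, and 2970 regions with no neighbour within 5000 bp. The chains were thus chosen by the number and closeness of called regions, and those values are given below as a description, with no test.

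The cells were EdU-positive cells sorted from pulp that had been dissected out of the incisors of 5-day-old (postnatal) CD1 mice 24 h after a single dose of 5-ethynyl-2'-deoxyuridine (EdU) of 3.3 µg per g of body weight. EdU is a thymidine analogue that marks cells which made DNA after the injection. Chromatin of the EdU-positive cells was immunoprecipitated for Ring1b and sequenced (ChIP-seq). The labels name 1 Ring1b ChIP sample and 1 input DNA sample, both from such cells. The tables hold intervals from 2 ChIP runs and no input values, so the 2 runs were counted as 1 sample and no p-value was computed. Nothing in the labels says how many animals were pooled. Sequencing depth is unknown. Summit heights are whole numbers given by the authors on an unstated scale, and they rank regions within this sample only. The intervals given below are exact Clopper-Pearson 95% intervals. They cover counting error only, and they are too narrow where regions of the same chain share a locus. Coordinates are in mm10.

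Ring1b is the ubiquitin ligase of Polycomb repressive complex PRC1, which adds a ubiquitin to histone H2A and compacts chromatin. In vertebrates Polycomb complexes are recruited largely to CpG islands, stretches of DNA rich in CG dinucleotides that are not methylated. Over most such islands the bound stretch is short, but at genes of developmental transcription factors it can spread over the whole gene and its flanks. The mouse incisor grows throughout life, and Ring1b is expressed in the mesenchyme of its growing end, where dividing cells feed the pulp.

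The promoters below are shown because they differ widely in CG content and because they lie in chains with some of the highest or most numerous regions. Each is a RefSeq window of 300 bases, from 250 before to 50 after a start, in GRCm38.p6, the assembly that mm10 names. CG dinucleotides are in capitals. The Sox1 window (chr8:12395269-12395568, plus strand) lay under a region of height 8 in a chain of 12 regions and has 37 CG. The Sox2 window (chr3:34649745-34650044, plus strand) has 27 CG under a region of height 13. The Foxd3 window (chr4:99656049-99656348, plus strand) has 25 CG under a region of height 14. These 3 windows belong to factors of early neural and neural crest cells. The Tal1 window (chr4:115057561-115057860, plus strand) has 22 CG and lay under the second highest region of all chains, with height 24. It belongs to a RefSeq start ahead of the Tal1 start that the authors gave. The Meis2 window (chr2:116064570-116064869, minus strand) has 13 CG under a region of height 22. Its RefSeq start lies inside the gene, not at the Meis2 start that the authors gave. The Cdkn2a window (chr4:89282143-89282442, minus strand) has 12 CG under a region of height 5. The Lhx9 window (chr1:138842395-138842694, minus strand), from a chain chosen after its values were seen, has 6 CG under a region of height 11. This window belongs to a RefSeq start inside the gene, not to the start that the authors gave. All windows under chain regions held between 2 and 52 CG.
Sox1: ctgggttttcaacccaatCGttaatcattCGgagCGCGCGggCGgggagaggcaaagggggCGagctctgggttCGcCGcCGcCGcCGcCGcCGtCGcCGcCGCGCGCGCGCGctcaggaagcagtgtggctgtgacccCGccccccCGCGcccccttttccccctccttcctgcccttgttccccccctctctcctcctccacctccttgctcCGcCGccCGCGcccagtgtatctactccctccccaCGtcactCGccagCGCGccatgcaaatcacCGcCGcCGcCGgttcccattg
Sox2: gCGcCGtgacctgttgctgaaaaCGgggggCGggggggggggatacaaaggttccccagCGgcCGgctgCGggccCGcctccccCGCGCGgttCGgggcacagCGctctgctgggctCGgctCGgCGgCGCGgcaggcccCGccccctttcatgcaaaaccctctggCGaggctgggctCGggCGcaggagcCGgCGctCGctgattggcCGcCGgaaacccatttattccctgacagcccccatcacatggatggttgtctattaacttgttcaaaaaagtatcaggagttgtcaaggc
Foxd3: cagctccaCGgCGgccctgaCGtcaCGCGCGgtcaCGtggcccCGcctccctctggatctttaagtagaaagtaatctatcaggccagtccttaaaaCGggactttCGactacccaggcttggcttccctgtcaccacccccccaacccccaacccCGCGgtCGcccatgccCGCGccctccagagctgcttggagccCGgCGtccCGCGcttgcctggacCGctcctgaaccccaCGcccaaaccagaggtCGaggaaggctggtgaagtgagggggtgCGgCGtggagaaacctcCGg
Tal1: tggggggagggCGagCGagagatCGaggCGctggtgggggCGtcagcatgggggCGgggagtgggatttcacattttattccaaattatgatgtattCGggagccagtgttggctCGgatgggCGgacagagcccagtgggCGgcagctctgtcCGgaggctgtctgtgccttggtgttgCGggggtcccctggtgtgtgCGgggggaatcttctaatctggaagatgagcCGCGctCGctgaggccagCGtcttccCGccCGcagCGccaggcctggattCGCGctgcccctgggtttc
Meis2: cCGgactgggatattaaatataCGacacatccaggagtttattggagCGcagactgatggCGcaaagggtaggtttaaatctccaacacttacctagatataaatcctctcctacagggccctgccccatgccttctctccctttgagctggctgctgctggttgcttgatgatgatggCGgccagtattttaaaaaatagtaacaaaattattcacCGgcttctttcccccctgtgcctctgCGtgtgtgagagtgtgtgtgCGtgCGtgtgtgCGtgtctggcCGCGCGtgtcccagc
Cdkn2a: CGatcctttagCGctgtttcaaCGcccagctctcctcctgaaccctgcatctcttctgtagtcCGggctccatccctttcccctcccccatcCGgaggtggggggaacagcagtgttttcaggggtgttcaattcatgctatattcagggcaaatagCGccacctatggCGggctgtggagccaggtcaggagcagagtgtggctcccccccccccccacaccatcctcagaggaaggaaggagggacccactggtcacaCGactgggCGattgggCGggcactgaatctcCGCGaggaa
Lhx9: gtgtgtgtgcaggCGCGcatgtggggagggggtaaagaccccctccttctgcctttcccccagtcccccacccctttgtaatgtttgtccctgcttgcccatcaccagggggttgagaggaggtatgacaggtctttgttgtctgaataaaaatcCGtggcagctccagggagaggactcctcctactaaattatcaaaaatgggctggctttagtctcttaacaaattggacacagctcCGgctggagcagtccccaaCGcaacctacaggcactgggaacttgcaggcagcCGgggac

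Chains were mostly short runs with a long tail. Of the 158 chains, 67 held 3 regions, 32 held 4, 16 held 5, 13 held 6 and 16 held 7. A further 5 held 8 regions, 4 held 9, 2 held 11, 2 held 12 and 1 held 13. The span, measured from the first to the last base of a chain, ran from 1914 to 31427 bp with a median of 8323 bp and an interquartile range of 5530.5 to 11782 bp. Together the spans came to 1.48 Mb, of which called regions covered 61.0%. Coverage of a single chain ran from 17.9% at Runx3 to 98.5% at the start of Meis2. The chains therefore ranged from scattered summits to nearly unbroken stretches. Of the 576 gaps inside chains, 386 (67.0%) were under 1000 bp, and the median gap was 515 bp. Gaps of 4000 bp or more numbered 22. The largest gap inside a chain was 4956 bp, and the smallest gap left unjoined beside a chain was 5198 bp, at Foxa2. Chains were found on 20 chromosomes. Chromosome 2 had 19, chromosomes 1 and 4 had 13 each, and chromosomes 15 and X had 1 each.

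**Figure D1:**
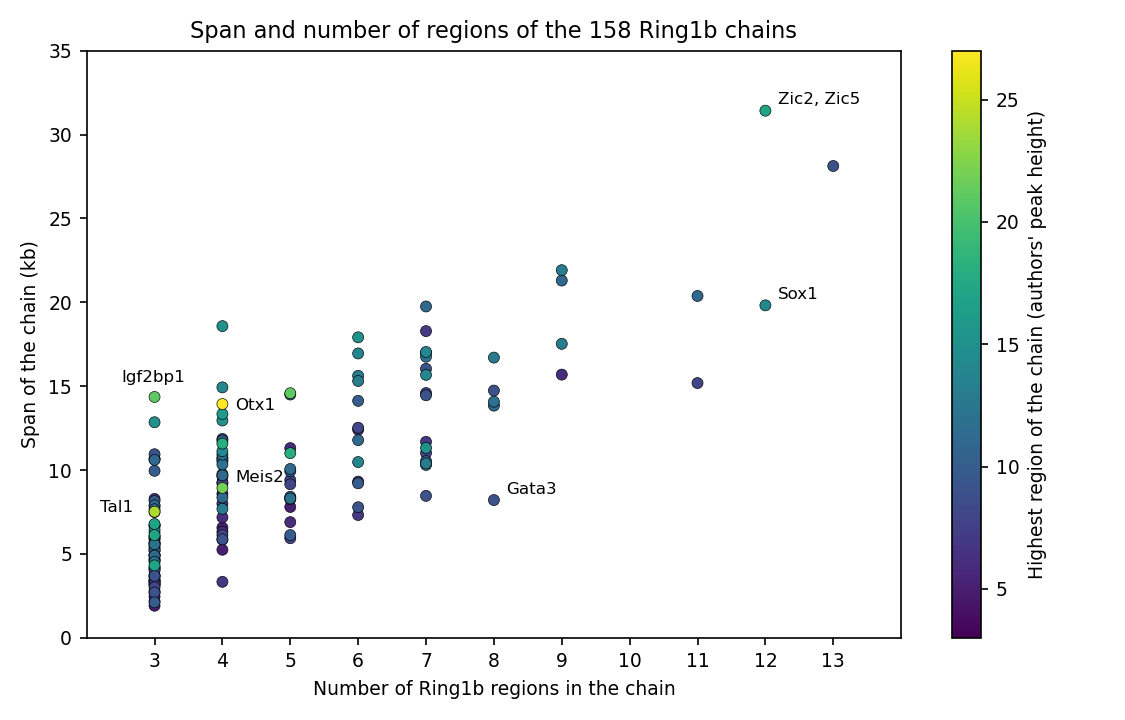
Span in kb (vertical axis) against the number of Ring1b regions (horizontal axis) for the 158 chains, 1 point per chain, coloured by the summit height of its highest region. The chain at Zic2 and Zic5 (12 regions, 31.4 kb) stands at the upper right, while the chain with the highest region, at Otx1, has 4 regions and spans 13.9 kb.

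Values on either side of the limit of 3 regions were as follows. Regions in chains of exactly 3 had a median height of 5 and a median width of 826 bp, against 4 and 688.5 bp for regions in pairs. Of the regions in chains of exactly 3, 9.45% reached a height of 10 and 56.2% lay at a gene start, against 4.2% and 68.2% in pairs.

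Clustered regions were higher and wider than isolated ones. Their median height was 5 (interquartile range 4 to 7), against 4 in pairs and 4 among single regions. Heights of 10 or more were reached by 93 of 734 chain regions (12.7%, 10.3 to 15.3), by 4.2% of regions in pairs (2.62 to 6.35) and by 1.38% of single regions (0.992 to 1.87). Over all merged regions the share was 3.8%. The chain, pair and single intervals do not overlap, and chains held 56.7% of all 164 regions of that height. Median widths were 877 bp in chains, 688.5 bp in pairs and 647 bp for single regions. The very highest regions were shared out differently. Chains held 5 of the 10 highest and 6 of the 10 widest merged regions, their own maximum was 27, and the maximum among single regions was 66. In 68 of the 158 chains (43.0%) at least 1 region reached 10, and in 17 at least 1 reached 15. At the other end, 5 chains had no region of 5 or more. The highest region of a chain was at its first or last position in 16 of the 59 chains with at least 5 regions.

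**Figure D2:**
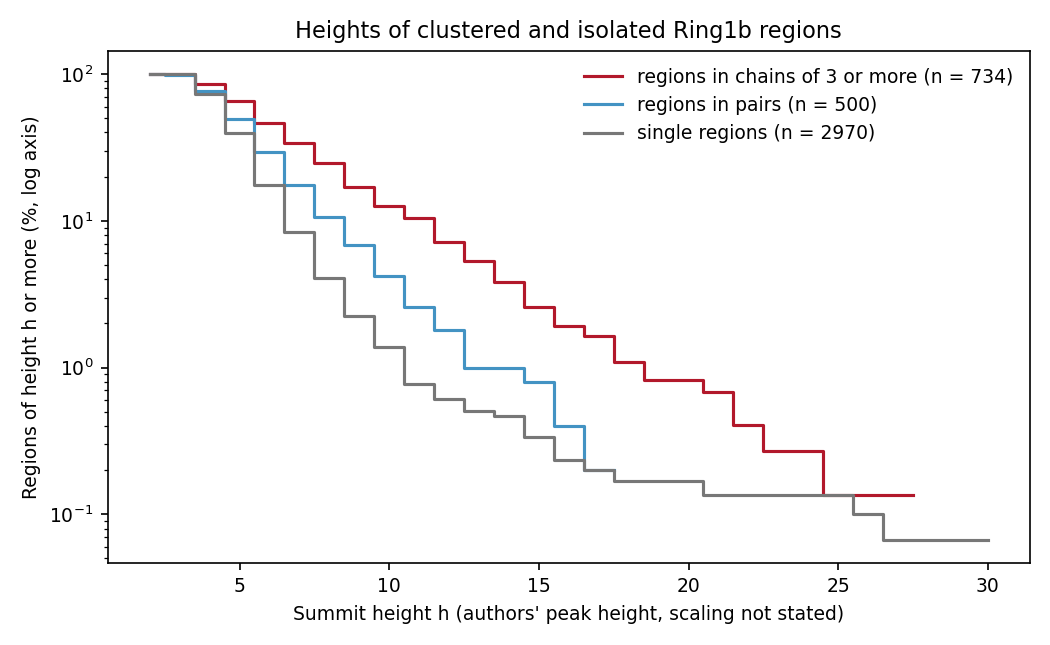
Share of regions (percent, log axis) whose summit height is at least the value on the horizontal axis, for regions in chains (n = 734), in pairs (n = 500) and alone (n = 2970). The horizontal axis stops at 30, short of the highest single region (66). The chain curve lies above both others from a height of 3 to 27, narrowly so at 3 and 25.

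Longer chains also held higher regions. The median of the highest region was 7 in chains of 3 regions, 10 in chains of 4, 10 in chains of 5 to 6 and 11 in chains of 7 or more. A chain with more regions has more draws for its maximum, and the median over all regions of these 4 groups was 5, 5, 6 and 5. Over the 158 chains the Spearman correlation of the highest height with the number of regions was 0.36 and with the span 0.56. Chains share 1 library, and these correlations are a description only.

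The share of regions at gene starts was lower for clustered than for isolated regions, although most chains touched a start. Of the 734 chain regions, 372 (50.7%, 47.0 to 54.4) overlapped the 2.5 kb on either side of the start of an assigned gene. The share was 68.2% (63.9 to 72.3) in pairs and 60.1% (58.3 to 61.8) among single regions, and it was 59.7% over all merged regions. Counted by chain, 135 of 158 (85.4%) had at least 1 region at a start, the highest region was at a start in 107 (67.7%), and all regions were at a start in 28 (17.7%). The remaining chain regions followed the gene body and its flanks. Inside genes lay 22.8% of chain regions, against 18.1% of regions in pairs or alone. Upstream lay 11.9% of chain regions, against 3.08%, and downstream 9.26%, against 2.82%. No gene was assigned to 5.45% of chain regions, against 14.8% of those in pairs or alone and 12.8% of all merged regions. The authors assigned genes within 10 kb of a region.

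Among chain regions, heights of 10 or more were most frequent within 1 kb of a start and least frequent beyond 10 kb. Their median height was 6 within 1 kb and 5 in each class farther out. Among the 694 chain regions with an assigned gene, 156 (22.5%) had their summit within 1 kb of its nearest start, against 62.4% of regions outside chains. Of these 156 regions, 20.5% reached a height of 10. The share was 11.5% from 1 to 2.5 kb, 12.7% from 2.5 to 5 kb, 10.5% from 5 to 10 kb and 4.48% farther out. In every one of these distance classes the share outside chains was lower, between 1.33% and 3.19%. The summit was upstream of the nearest start in 254 of the 694 (36.6%).

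**Figure D3:**
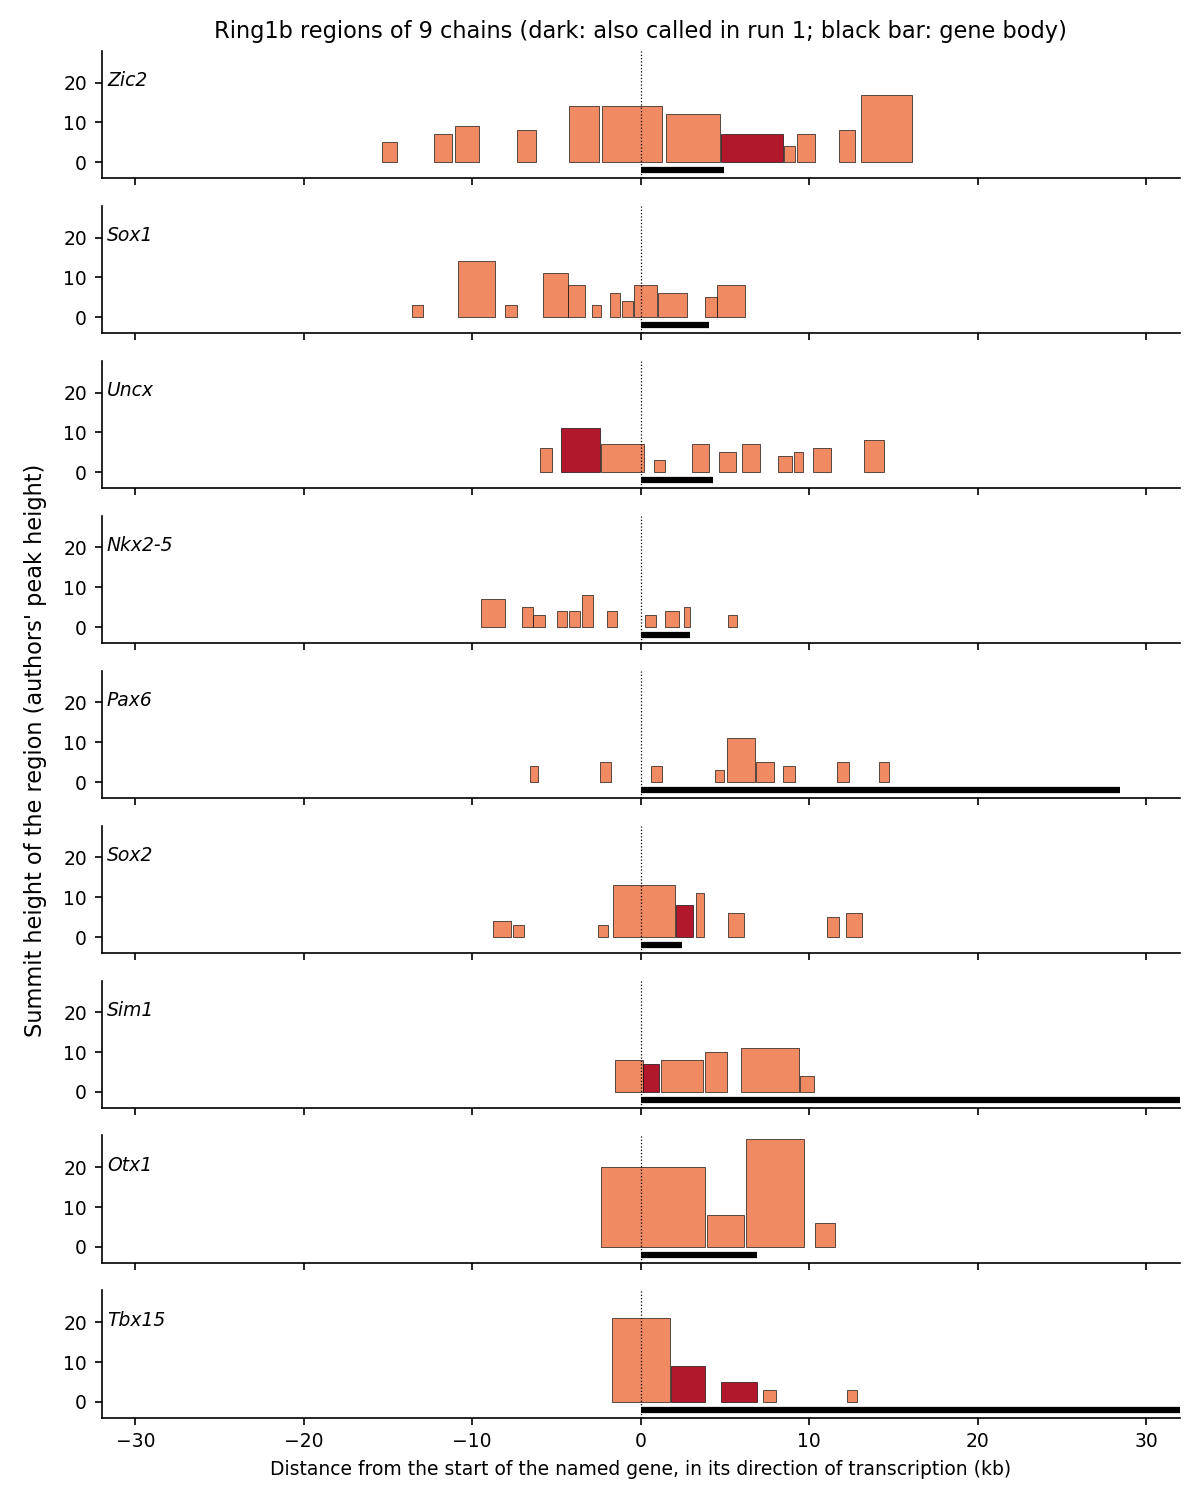
Summit height (vertical axis, same scale in each row) and extent of each Ring1b region of 9 chains, by distance in kb from the start of the named gene in its direction of transcription (horizontal axis). Dark bars were also called in run 1, the black line is the gene body (cut at the axis limit for Sim1 and Tbx15), and regions lie on both sides of the start in most rows, as in the chain at Zic2 with heights of 4 to 17.

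Genes of developmental transcription factors were the main content of the chains. At least 1 gene of 8 lists of such factors was assigned to 116 of the 158 chains (73.4%, 65.8 to 80.1), to 62 of the 250 pairs (24.8%, 19.6 to 30.6) and to 150 of the 2970 single regions (5.05%, 4.29 to 5.9). Over all merged regions the share of regions assigned to such a gene was 19.2%. A chain has more regions and hence more chances to be assigned a listed gene, and this share was 59.7% in chains of 3, 84.4% in chains of 4, 82.8% in chains of 5 to 6 and 83.3% in longer chains. Genes in the deposited table are called bound. In all, 227 of these 3993 genes (5.68%) were assigned to a chain region. Of the 268 bound genes of the 8 lists, 115 were in chains (42.9%, 36.9 to 49.1). A gene is called in a chain when the authors assigned it a region of the chain, which need not overlap it. Of the 125 genes of all lists in chains, 11 were overlapped by none of their chains, and for 4 of these (Bmi1, Cdkn1b, Foxa2 and Cadps2) the chain lay past the end of the gene.

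**Figure D4:**
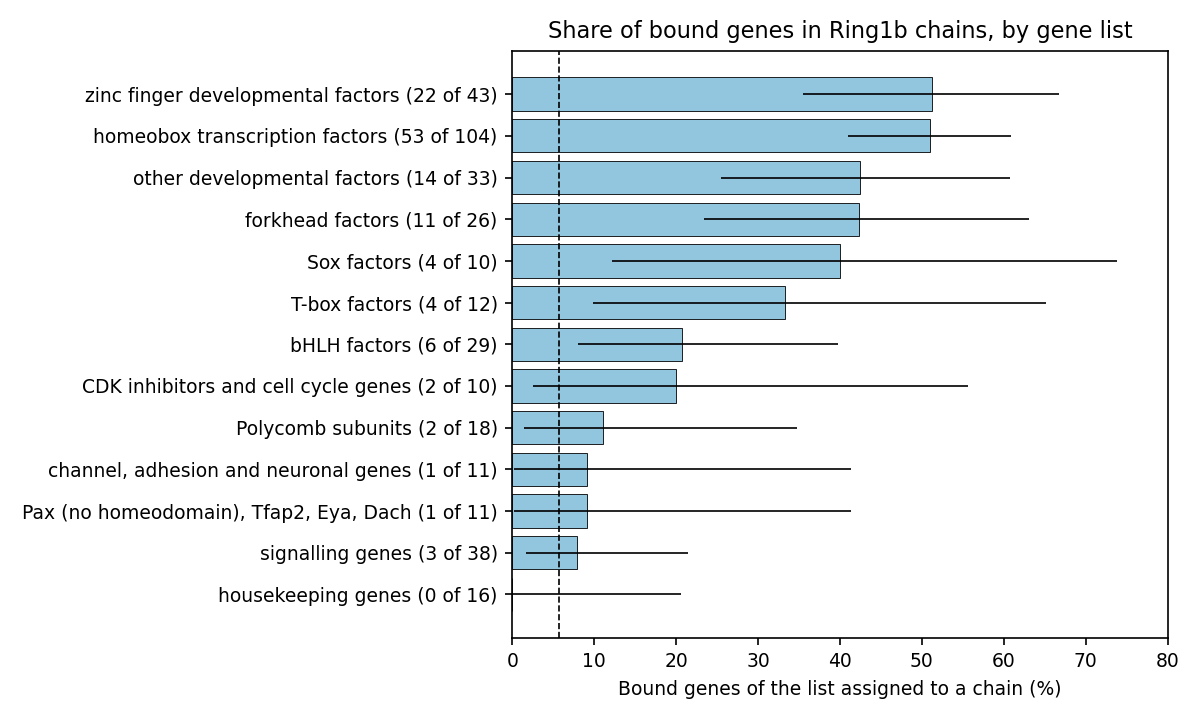
Share of the bound genes of each list that were assigned to a chain (percent), with exact 95% intervals as lines and counts in the labels. The dashed line is the share over all bound genes (5.68%). Zinc finger factors (22 of 43) and homeobox factors (53 of 104) have the highest shares, housekeeping genes (0 of 16) the lowest, and the oncofetal list, with 3 bound genes, is not drawn.

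Homeobox genes, which encode DNA-binding factors that set regional identity, were the largest family. Of 104 bound members outside the Hox clusters, 53 (51.0%, 41.0 to 60.9) were in chains. Their 56 chains had a median highest region of 10, and 29 of them held at least 5 regions. At Uncx (chr5:139537951-139558331), which acts in somite polarity, 11 regions over 20.4 kb had heights of 3 to 11. Nkx2-5 (chr17:26835830-26851018), a heart factor, had 11 regions over 15.2 kb with heights of 3 to 8. Of these chains, that at Uncx had a region of 10 or more and that at Nkx2-5 had none.

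The eye and forebrain factor Pax6 (chr2:105662312-105683612) and its antisense gene Pax6os1 shared 9 regions over 21.3 kb, of which called regions covered 33.4%. Its heights were 4, 5, 4, 3, 11, 5, 4, 5 and 5, so that a single region inside the gene stood out. Nkx2-3 (chr19:43600661-43617367), needed for spleen and gut lymphoid tissue, had 8 regions over 16.7 kb with heights of 5 to 13. Pax3 (chr1:78188991-78203731), a factor of neural crest and muscle progenitors, had 8 regions over 14.7 kb with heights of 3 to 9. Barhl2 (chr5:106451627-106471380), a factor of retinal and spinal neurons, had 7 regions over 19.8 kb with heights of 4 to 11. In these 4 chains the called regions covered between 33.4% and 65.6% of the span.

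The chain with the highest region lay at Otx1 (chr11:21990096-22004033), a forebrain factor, and was also assigned to Ehbp1. Its 4 regions had heights of 6, 27, 8 and 20 and covered 93.6% of 13.9 kb. The 20-high region overlapped the start, and the 27-high region lay at the far end of the gene. At its relative Otx2 (chr14:48662953-48677080), 6 regions over 14.1 kb had heights of 10, 9, 5, 8, 4 and 3. Both members of the family thus had chains, at different heights.

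Meis1 and Meis2, which encode cofactors of Hox proteins, each carried 2 separate chains. The Meis2 start (chr2:116060921-116069857) had 4 regions with heights of 5, 4, 22 and 6 that covered 98.5% of 8.94 kb. The second Meis2 chain (chr2:115852801-115861263) had 7 regions with heights of 3 to 9 over 8.46 kb, none of them at a start. At Meis1, 7 regions over 17.0 kb (chr11:19009319-19026315) had heights of 3 to 9, and 7 regions over 10.3 kb (chr11:18869849-18880155) had heights of 3 to 12. Of these, the chain at chr11:19009319-19026315 had 4 regions at a start and the other had 0. Both genes therefore had a chain at their start and another away from it. The second Meis1 chain lay over a RefSeq start of 8430419K02Rik, which the deposited table does not assign to it.

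Several homeobox subfamilies were represented by more than 1 chain. Among the sine oculis genes, factors of sense organs and kidney, Six6 had 6 regions over 9.31 kb, Six3 had 5 over 9.15 kb and Six2 had 5 over 8.41 kb. The highest region reached 10 at Six2, 8 at Six3 and 7 at Six6. The chains of Six3 and Six2 lay 57841 bp apart on chromosome 17. Of the POU genes, Pou3f3 (chr1:42692742-42704064), a factor of cortical neurons and kidney, had 7 regions over 11.3 kb with heights of 5, 13, 5, 4, 15, 6 and 6. All 7 overlapped a start window of Pou3f3 or of the 2 noncoding genes assigned with it. Another chain of 3 regions (heights 8, 3 and 7) was assigned to Pou3f3 as well, 5200 bp away. Pou3f2 had 5 regions with heights of 4 to 8 over 9.41 kb, and Pou4f1, a sensory neuron factor, had 5 with heights of 4 to 11 over 10.1 kb.

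Of the Iroquois genes, Irx5 had 7 regions over 10.4 kb with heights of 3 to 13, Irx2 had 5 over 8.34 kb with heights of 4 to 5 and Irx3 had 3 over 6.45 kb with heights of 3 to 13. Irx1 was bound only outside chains. Nkx2-1, the thyroid and lung factor, had 5 regions over 8.26 kb with heights of 3 to 8. Nkx2-4 had 3 regions over 4.32 kb with heights of 3, 17 and 3, a single high summit between low neighbours. Nkx6-1, a factor of beta cells and motor neurons, had 4 regions over 13.3 kb with heights of 4, 16, 13 and 4. The family therefore held both flat and peaked chains.

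Other homeobox chains with at least 5 regions spanned 6.13 to 17.9 kb. Otp (chr13:94869271-94887185), a hypothalamic factor, had 6 regions with heights of 5, 4, 12, 12, 4 and 15. A chain shared by Hmx2, Hmx3 and Bub3 had 6 with heights of 3 to 14 over 17.0 kb. Shox2, a limb and palate factor, had 5 regions over 14.5 kb with heights of 5 to 10, also assigned to Rsrc1. Onecut2 had 7 regions over 14.5 kb with heights of 3 to 9. These chains lay at genes with roles in brain, inner ear, limb and liver. Evx1, which lies at the edge of the Hoxa cluster and was kept by the 10 kb limit, had 6 regions with heights of 4 to 8 over 12.5 kb. Vax2, a ventral retina factor, had 5 regions with heights of 8, 4, 11, 18 and 3 over 11.0 kb. Engrailed 1 (En1) had 5 with heights of 3 to 12 over 8.31 kb, and goosecoid (Gsc) had 5 with heights of 4 to 10 over 6.13 kb, all at a start.

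Of the homeobox chains with fewer regions, Tlx3, a sensory neuron factor, had 4 regions over 11.6 kb with heights of 4, 4, 18 and 16. Hlx had 3 over 6.12 kb with heights of 7, 5 and 17. Homeobox genes of the dental mesenchyme were bound but mostly outside chains. Dlx1, Dlx2, Dlx5, Dlx6, Msx1, Msx2, Lhx6, Lhx8 and Prrx1 all had their regions in pairs or alone. The exception was Barx1, a marker of molar mesenchyme, with 4 regions over 8.58 kb and heights of 5, 4, 5 and 5.

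Zinc finger developmental factors had 22 of 43 bound members in chains (51.2%, 35.5 to 66.7). The longest chain of all was shared by Zic2 and Zic5, factors of forebrain and neural crest, on chromosome 14 (chr14:122460048-122491474). Its 12 regions had heights of 5, 7, 9, 8, 14, 14, 12, 7, 4, 7, 8 and 17 and covered 71.4% of 31.4 kb. The 17-high region lay beyond the end of Zic2, over the start of Gm10837, which was also assigned to the chain. In all, 8 of the 12 regions overlapped a start. The pair Zic1 and Zic4 had 3 regions with heights of 7, 3 and 5 over 5.41 kb.

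Gata3 (chr2:9877307-9885519), a factor of T cells and of inner ear and skin, had 8 regions with heights of 3 to 9, packed into 8.21 kb with 87.1% coverage. Gata2 had 3 regions over 10.6 kb with heights of 8, 11 and 5, and Gata4 had 4 over 9.27 kb with heights of 7, 8, 5 and 7. Gata6 was bound outside chains. The limb bud factor Sp8 (chr12:118836359-118853886) had 9 regions over 17.5 kb with heights of 3 to 13. Its relative Sp9 shared 6 regions with Cir1 over 15.6 kb, with heights of 4 to 13. Prdm6, a smooth muscle factor on chromosome 18, had 8 regions over 14.1 kb with heights of 3 to 12. Sall1, a kidney factor, had 5 regions over 6.9 kb with heights of 4 to 6, all at a start. Among the smaller chains Fezf1, a forebrain factor, shared 4 regions with Cadps2 (heights 6, 6, 14 and 3 over 14.9 kb). Wt1, a kidney and gonad factor, had 3 with heights of 8, 10 and 3. Insm1, an endocrine factor, had heights of 6, 8 and 6, and Gfi1, a blood and inner ear factor, had heights of 6, 7, 6 and 5.

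Sox genes, which encode HMG-box factors, had 4 of 10 bound members in chains (40.0%, 12.2 to 73.8). Sox1, a marker of neural progenitors, had 12 regions over 19.8 kb (chr8:12381920-12401740) with heights of 3, 14, 3, 11, 8, 3, 6, 4, 8, 6, 5 and 8. The highest of these lay ahead of the Sox1 start, not at the promoter printed above. It lay at the start of the noncoding gene Gm5607, which was also assigned to the chain. Sox2, a stem cell factor that also marks stem cells of the incisor epithelium, shared 9 regions with Sox2ot over 21.9 kb (chr3:34641244-34663161). Their heights were 4, 3, 3, 13, 8, 11, 6, 5 and 6, with the 13-high region over the printed promoter. Sox21 had 6 regions over 10.5 kb with heights of 5, 7, 5, 6, 5 and 14, so that the high summit stood at an end. Sox4 had 3 regions with heights of 4, 3 and 4 over 7.86 kb. Sox9, the chondrocyte factor, was bound outside chains.

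Forkhead genes had 11 of 26 bound members in chains (42.3%, 23.4 to 63.1). Foxb1, a hindbrain and hypothalamic factor, had 9 low regions with heights of 3 to 6 over 15.7 kb (chr9:69755539-69771231). Foxa1 (chr12:57534855-57550530), a pioneer factor of endoderm, had 7 regions over 15.7 kb with heights of 9, 14, 12, 3, 5, 7 and 3. Foxd3, the neural crest factor, had 4 regions with heights of 11, 9, 14 and 9 that covered 96.5% of 11.1 kb. All 4 of its regions were far above the typical region, unlike those of Foxb1. Foxl2 reached 13 and Foxc1 12, each with 4 regions. The chain assigned to Foxc2, Foxl1 and Mthfsd had heights of 11, 11 and 6. Foxa2 reached 10, in a chain past the end of the gene, and Foxd1 reached 6.

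T-box genes had 4 of 12 bound members in chains (33.3%, 9.92 to 65.1). Tbx15 (chr3:99252042-99266624), a factor of limb and skin mesenchyme, had 5 regions over 14.6 kb with heights of 21, 9, 5, 3 and 3, falling away from the start into the gene. Tbr1, a cortical neuron factor, shared 4 regions with Psmd14 (heights 8, 15, 4 and 5 over 13.0 kb). Tbx18 had 3 regions with heights of 6, 5 and 12 over 5.58 kb, and Tbx4, the hindlimb factor, had 4 with heights of 3, 6, 6 and 3 over 6.32 kb. Apart from Tbx4, these chains reached 10.

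Basic helix-loop-helix (bHLH) factors had 6 of 29 bound members in chains (20.7%, 7.99 to 39.7). Tal1 (chr4:115056135-115063656), a blood and endothelial factor, had 3 regions over 7.52 kb with heights of 24, 6 and 7. Sim1 (chr10:50894150-50905936), a hypothalamic factor, had 6 regions with heights of 8, 7, 8, 10, 11 and 4 that covered 91.3% of 11.8 kb. Its relative Sim2 (chr16:94077942-94096524) had 4 regions over 18.6 kb with heights of 7, 11, 6 and 15. These 3 chains were higher than the rest of the family. Neurog2, a neurogenic factor, had 7 regions over 10.5 kb with heights of 3 to 10, and Tcf21, a factor of visceral mesenchyme, had 6 over 9.21 kb with heights of 3 to 10. Npas3 had 4 regions with heights of 3 to 5 over 5.86 kb. Twist1, Hand1, Hand2 and the Hes genes were bound outside chains.

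Of 33 other bound developmental factors, 14 (42.4%, 25.5 to 60.8) were in chains. The nuclear receptor gene Nr2f2 (chr7:70348749-70362591), a factor of vein and heart atrium, had 8 regions over 13.8 kb with heights of 3 to 11 and none at a start. Its relative Nr2f1 had 5 regions over 9.93 kb with heights of 4 to 10, and a second chain of 3 regions (heights 3, 3 and 5) 12171 bp away. Nr2e1, a neural stem cell factor, had 3 regions with heights of 6, 6 and 17 over 6.79 kb. Ebf3 had 7 regions over 16.8 kb with heights of 4, 12, 5, 11, 12, 4 and 8, and Ebf2, a brown fat and bone factor, had 6 over 7.79 kb with heights of 4 to 9. Ebf1 was bound only outside chains. The sex determination gene Dmrt1 shared 7 regions with Dmrt3 over 14.6 kb, with heights of 4 to 8, and Dmrta2 had 4 regions with heights of 2 to 10. Nfia and Nfib, glial and lung factors, both reached 11. Nr5a2 reached 7. In the list of Pax genes without a homeodomain and Tfap2 factors, 1 of 11 bound members was in a chain (9.09%, 0.23 to 41.3), namely Pax5, a B cell factor, with heights of 4, 4 and 5. Runx2, the osteoblast factor, and Pax9, a tooth mesenchyme factor, were bound outside chains.

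Genes outside the transcription factor lists were seldom in chains. Of 38 bound signalling genes, 3 were (7.89%, 1.66 to 21.4), close to the 5.68% over all bound genes. They were the Hedgehog receptor gene Ptch1 (4 regions with heights of 4, 8, 5 and 5 over 10.5 kb), the retinoic acid hydroxylase gene Cyp26b1 (heights 4, 5, 8 and 4 over 6.12 kb) and the ephrin gene Efna5 (heights 3, 5 and 8 over 3.02 kb). Each reached a height of 8 and no more. The Wnt, Fgf and Notch genes that were bound had their regions in pairs or alone.

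Among cell cycle genes 2 of 10 bound members were in chains (20%, 2.52 to 55.6), and both encode inhibitors of cyclin-dependent kinases. Cdkn2a (chr4:89270791-89282474), which encodes Ink4a and Arf and is a known Polycomb target, had 7 regions over 11.7 kb with heights of 4, 4, 7, 5, 4, 4 and 5. The profile was flat, with 49.6% of the span covered. None of its regions overlapped the start given in the deposited table, and the printed promoter belongs to another RefSeq start inside the gene. A chain of 3 regions with heights of 5, 5 and 8 over 2.79 kb was assigned to Cdkn1b and to the noncoding gene 1190002F15Rik. It lay past the end of Cdkn1b, at the start of 1190002F15Rik. Cdkn1c, Cdkn2b and Cdkn2c were bound outside chains.

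Polycomb genes themselves had 2 of 18 bound members in chains (11.1%, 1.38 to 34.7). A chain of 7 regions with heights of 4, 5, 4, 8, 5, 5 and 4 over 11.0 kb (chr2:18688865-18699884) was assigned to Bmi1, a PRC1 subunit, and also to BC061194 and LOC101055977. It began 2235 bp past the end of Bmi1, and the starts that its regions overlapped were those of the other genes. Of the oncofetal RNA-binding genes, 2 of 3 bound members were in chains. Igf2bp1 (chr11:96000774-96015134), expressed in embryonic tissues, had 3 regions over 14.4 kb with heights of 4, 21 and 3 in a chain also assigned to Gip. Igf2bp3 had 6 over 15.3 kb with heights of 4, 13, 7, 6, 4 and 9. Housekeeping genes had 0 of 16 bound members in chains, with an upper bound of 20.6%.

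Noncoding genes were frequent among chain genes. Of the 227 genes, 43 (18.9%) were long noncoding RNA genes, against 251 of 3766 other bound genes (6.66%), and 42 chains (26.6%) carried at least 1. Many of these lie beside a factor gene, such as Six3os1, Otx2os1 and Pax6os1, and such neighbours were assigned the same regions. Protein-coding genes made up 71.4% of chain genes, against 87.6% of other bound genes. By number of assigned genes, 82 chains had 1, 53 had 2, 15 had 3 or more and 8 had none.

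Chains beside 5 microRNA genes were assigned to them. MicroRNA genes made up 2.2% of chain genes, close to the 1.67% among other bound genes. The chain of Mir9-2, a neural microRNA, and its host C130071C03Rik (chr13:83719842-83738127) had 7 regions with heights of 3 to 7 over 18.3 kb and ended 687 bp from the hairpin. The chain beside the sensory organ cluster of Mir183, Mir96 and Mir182 had 3 regions with heights of 4, 5 and 4 and lay 2545, 2731 and 6290 bp from the 3 hairpins. Mir1897 lay 2702 bp from the Sox2 chain. The mature sequences of the neural and sensory microRNAs are given from RefSeq (GRCm38.p6), with the seed in capitals. Over the 7 bases in capitals the 4 seeds differ. Those of miR-96 and miR-182 differ only in the last of these bases, and those of miR-96 and miR-183 only in the first.
mmu-miR-9-5p: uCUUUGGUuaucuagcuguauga
mmu-miR-183-5p: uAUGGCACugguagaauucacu
mmu-miR-96-5p: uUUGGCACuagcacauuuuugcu
mmu-miR-182-5p: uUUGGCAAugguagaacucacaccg

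A further 25 chains carried assigned genes but no listed gene, and 4 of these held 5 or more regions besides that of Mir9-2. The imprinted gene Zdbf2 (chr1:63260512-63277552) had 7 regions over 17.0 kb with heights of 5, 4, 13, 4, 5, 14 and 4. Only 1 of these lay at a start. A noncoding gene named Gm17580 (chr3:96327339-96343379) had 7 regions over 16.0 kb with heights of 3 to 9. Bahcc1, which encodes a chromatin protein, had 5 with heights of 3 to 6 over 11.3 kb, and Casz1, a zinc finger gene of the heart outside the fixed list, had 5 with heights of 4 to 8 over 5.94 kb.

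No gene was assigned to 8 chains, and 3 of them lay inside RefSeq gene models. A chain of 6 regions (chr1:63247418-63254739, heights 4, 7, 3, 4, 5 and 6) lay in the model of Zdbf2, 5772 bp from the chain assigned to that gene. A chain of 5 regions (chr3:99235399-99243199, heights 4 to 5) lay in the model of Tbx15, 8842 bp from the Tbx15 chain. Another lay in that of Gata4 (chr14:63265477-63270664, heights 3, 3 and 8). Each of these 3 genes also has a chain assigned to it. Of the others, a chain of 4 regions (chr6:51176772-51185137, heights 6, 11, 3 and 4) was 37.8 kb from the nearest coding gene, and a chain of 3 (chr10:42630804-42635709, heights 8, 6 and 11) was 43.2 kb from Ostm1.

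The support by run 1 was thin everywhere and somewhat greater in chains. Run 1 had 465 intervals with heights up to 9, and run 2 had 3938 with heights up to 66. Run 2 alone gave 158 chains and run 1 alone gave 0, so the chains are in effect those of run 2. Of the chain regions, 39 (5.31%, 3.81 to 7.19) were called in run 1, against 12.9% of single regions (11.7 to 14.1) and 10.7% of all merged regions. Among single regions these were mostly regions called in run 1 alone. Counted among regions called in run 2, the share also called in run 1 was 36 of 731 in chains (4.92%, 3.47 to 6.75), 2.1% in pairs (1.01 to 3.83), 0.843% among single regions (0.529 to 1.27) and 1.86% overall. Chains held 49.3% of the 73 regions called in both runs. By chain, 37 of 158 (23.4%) had at least 1 region called in run 1. This share was 13.4% in chains of 3 regions and 33.3% in chains of 7 or more.

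The share called in both runs moved with height. At run 2 heights of 1 to 4 it was 1.19% in chains (0.245 to 3.43), against 0.573% outside (0.275 to 1.05). From 7 to 9 it was 6.41% (3.12 to 11.5), against 1.09% (0.226 to 3.17). At 10 or more it was 18.3% (11.0 to 27.6), against 14.5% (6.86 to 25.8). The intervals of chains and of the rest overlap in each of these 3 classes, from 7 to 9 only just. The part of width in this was not tested; at 10 or more, the median width was 2658 bp in chains and 1240.5 bp outside. Regions of both runs included 2 of the 5 at Tbx15 and 1 each at Tal1, Sox2, Foxd3, Igf2bp1 and the Zic2 chain, whereas Otx1, Sox1 and Cdkn2a had none.

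Run 1 signal at chain genes was low but seldom nil. The gene table gives the authors' mean height in each run whether or not a region was called. Chain genes with no region called in run 1 had a median run 1 mean of 1.5, against 0 for the other bound genes not called in run 1. The run 1 mean was 0 for 11 of 180 such chain genes (6.11%), against 1850 of 3343 other genes (55.3%). The median run 2 mean was 5.67 for these chain genes and 4 for these other genes. Chain genes have more regions over which this mean is taken, and the part of that in the difference was not tested.

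Promoters under chain regions held fewer CG dinucleotides than other Ring1b-bound promoters, and more than unbound ones. In 300-base RefSeq windows the median number of CG was 18 under chain regions (n = 190), 29 under regions in pairs or alone (n = 1732) and 6 under no region (n = 30825). Windows that lay inside a chain between its regions had a median of 13 (n = 39). A window was called CpG-rich with a GC content over 50% and an observed to expected CG ratio over 0.6. This held for 60.0% of windows under chain regions (52.7 to 67.0), 90.2% under pairs or single regions (88.7 to 91.5), 29.9% under no region and 33.3% of all 32817 windows. The motif CG itself, which reads the same on both strands, was present in 94.6% of all windows. Outside chains, windows under regions of height 10 or more were CpG-rich in 90.2% of cases as well (n = 41).

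This difference depended in part on how windows were chosen. A gene can have several windows, and with the CG-richest window per gene the share was 71.2% in chains (n = 139), against 91.2% outside (n = 1541). For protein-coding genes alone it was 75.3% (n = 89), against 92.3% (n = 1345). The chain share stayed lower in each case, and the exact intervals did not overlap. With the CG-richest window of each chain it was 76.5% (n = 102), and no matching choice was made outside chains. Among the printed windows Sox1, Sox2, Foxd3, Tal1 and Meis2 met the criterion, with observed to expected ratios of 0.666 to 1.07. Cdkn2a (0.442) and Lhx9 (0.261) did not.

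**Figure D5:**
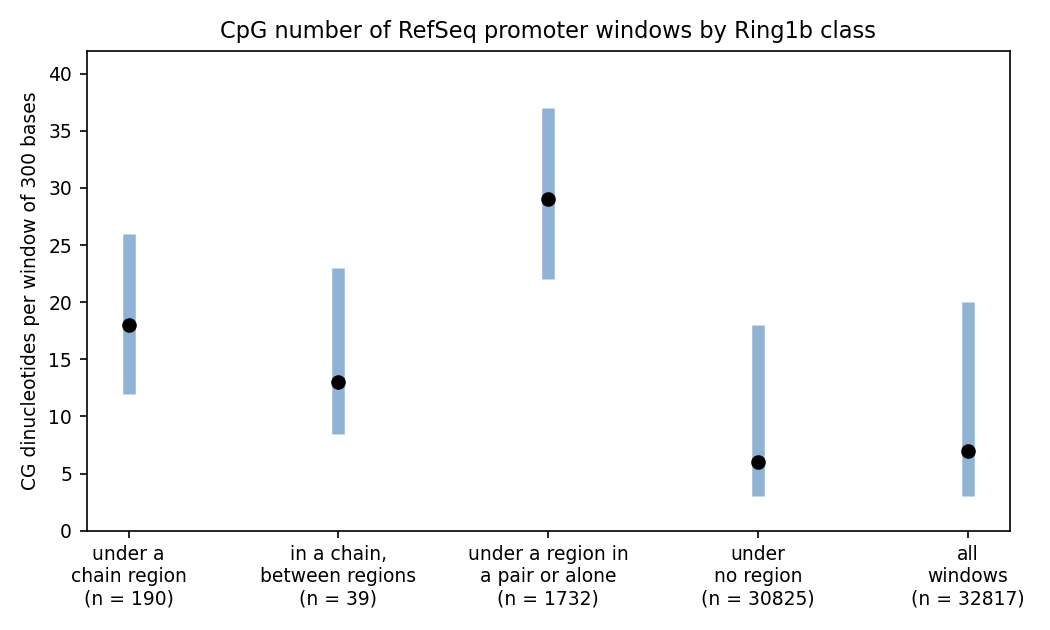
Number of CG dinucleotides in 300-base RefSeq promoter windows by Ring1b class, with points at the median and bars over the interquartile range. Windows under chain regions (median 18, n = 190) lie between those under regions in pairs or alone (29, n = 1732) and those under no region (6, n = 30825).

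Marker genes of cell types were compared with the chains because pulp holds several of them. In a ChIP sample a bound marker does not show that the cell type is present or absent. Of 12 dental mesenchyme markers 10 were bound, and 1 was in a chain (Barx1). Of 9 dental epithelium markers 2 were bound. In chains were 1 of 7 erythroid markers (Tal1) and 1 of 6 muscle markers (Pax3), and none of the endothelial, immune, glial and neuronal markers was. The sorted population was not identified further.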

How the data were processed

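Ring1b ChIP-seq of EdU-positive incisor pulp cells was read from the deposited tables (1 ChIP sample in 2 runs, no input values). Per the submitters' processing notes BWA, SICER and mm10 were used, with no versions or settings given there. The deposited interval file holds merged regions with a score for each summit, which is its height. The deposited gene table gives the same heights as a signal value, per run and per gene. The sources used here do not give their scaling.

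Merged regions were chained with a gap limit of 5000 bp and a minimum of 3 regions, in Python 3.11.15 with pandas 2.3.3 and numpy 2.4.6. Exact intervals came from scipy 1.17.1 and figures from matplotlib 3.10.9. A region was taken as called in a run when it overlapped that run's interval by at least 1 bp. Of the 227 chain genes, 212 were found in the RefSeq table of GRCm38.p6. Of 32851 promoter windows there, 32817 were used. The chaining was tested on simulated data.

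The chains, gene lists and alternatives were chosen with earlier results of these data known. Chains with 5 or more regions, the 10 longest and the 10 with the highest region (11 with ties) are named, then up to 6 per list by height and up to 5 chains without a gene. A few genes picked by it are left unreported. Other genes, such as Barx1, Lhx9 and those named as bound outside chains, were chosen after their values were seen. Alternatives changed the gap, the region minimum, the height, the run, the Hox limit, the start window and the choice of promoter window.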

Additional observations from a re-analysis of the deposited data

How the results depend on the processing

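The number of chains (158) stayed within 1.5 times of its value with a gap limit of 2500 or 10000 bp (136 and 169), run 2 alone (158), Hox clusters extended to 100 kb (157) or kept (172), and regions called in run 1 left out (145, chosen after seeing the data). Requiring 4 regions left 91 chains. Keeping only regions of height 5 or more before chaining left 87 chains with 360 regions, a median height of 7, 55.0% of regions at a start, 7.5% called in run 1 and 88.5% of chains with a developmental factor. At 6 or more the values were 54 chains, 208 regions, a median of 8, 56.7% and 10.1%. With run 1 alone there were 0 chains and 0 regions, so the other quantities had no value there. The share of chain regions at a start was 31.9% with a window of 1 kb and 86.0% with 10 kb. The CpG-rich share of promoters, 60.0% over all windows, was 76.5% with the CG-richest window per chain. It was 71.2% with 1 window per gene and 75.3% with 1 per protein-coding gene. Each remaining value moved by less than its counting interval or by less than 1.5 times. No paired analysis was possible because only 1 ChIP sample and 1 input sample are labelled. Replicate spread is unknown, and heights are small whole numbers with many ties.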

Other observations

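Some chains lay at loci of other kinds, chosen after their values were seen. The chain assigned to Gm17580 overlapped 3 tRNA genes, and a chain at Plekhg2 and Zfp36 (3 regions with heights of 5, 5 and 3 over 2.45 kb) overlapped 1. Besides Zdbf2, the imprinted locus Gnas, whose transcripts start from several promoters, had 3 regions with heights of 3, 9 and 7 over 2.7 kb (chr2:174327247-174329948). Neither Gnas nor the tRNA chains had a region of 10 or more.

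Chains with no other region between them were less than 20 kb apart in 6 cases. These lay at Pou3f3, Zdbf2, Vax2, Foxd1, Tbx15 and Nr2f1, with gaps of 5200, 5772, 6843, 8235, 8842 and 12171 bp. At Zdbf2 and Tbx15 both chains lay in the same gene model, and in the other cases both were assigned to the same gene. An assigned gene need not be overlapped. The second Foxd1 chain overlapped no RefSeq gene, and the second Nr2f1 chain overlapped other gene models, Gm38604 and 3110006O06Rik. With the limit of 5000 bp all of these counted as separate chains. The Gata4 chains (chr14:63240459-63249728 and chr14:63265477-63270664) are not among the 6 cases, because another region lay between them. Other neighbouring chains less than 100 kb apart included those of Six3 and Six2, Tlx1 and Lbx1, and Nkx2-4 and Nkx2-2, each a pair of homeobox genes. On the Hoxa side, Skap2 had a chain of 4 regions with heights of 6, 3, 3 and 3 over 7.18 kb, and Evx1 had its chain of 6 at the other edge.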
